A study of Bos taurus with 9 samples.

Results

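The 10 bovine oocyte genes described here were taken by name from a list made with earlier results of these data known, with no threshold on their values: NLRP5, TLE6, OOEP and KHDC3L, which encode the core of the subcortical maternal complex, PADI6, NLRP2 and ZBED3, whose proteins have been placed with the complex or near it, and NLRP8, NLRP9 and NLRP13, further NLRP genes of oocytes. All 10 were found by symbol among the 17852 genes of the table, under NCBI gene IDs 493717 (NLRP5), 511478 (TLE6), 507401 (OOEP), 616454 (KHDC3L), 531084 (PADI6), 100301026 (NLRP2), 615651 (ZBED3), 506161 (NLRP8), 520716 (NLRP9) and 529844 (NLRP13). Of these, 9 passed the expression filter and were tested, and ZBED3 did not.

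The subcortical maternal complex is a large protein assembly that lies beneath the cortex of the mammalian egg and early embryo. Its parts are made from mRNAs that the growing oocyte stores, and it is known for its need in early cleavage, for the organisation of cytoplasmic lattices, actin and the spindle, and, through several of its genes in women, for links to failed early development or to disturbed imprinting in offspring. Most NLRP proteins are studied as sensors of innate immunity, but a branch of the family is expressed mainly in oocytes.

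RNA from Bos taurus oocytes at metaphase II, the stage at which the egg awaits the sperm, was sequenced in 9 libraries. Each of 3 conditions had 3 libraries: control, exposure to microplastics, and microplastics combined with taurine, an amino sulfonic acid of follicular and tubal fluid. The labels give no dose, particle type, exposure time, breed or number of oocytes per library, and taurine alone was not analysed here. Whether replicate libraries stem from different animals or cultures is not stated either, and p-values therefore reflect the spread of these samples alone, which may be technical.

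Libraries held 21.17 to 22.74 M estimated reads. The composition of the microplastics libraries differed from the rest, with TMM scaling factors of 1.21 to 1.25 against 0.835 to 0.972 in control and taurine libraries. Summed oocyte markers spanned 82564 to 110687 CPM (counts relative to the library total, here scaled with TMM) in the controls, 35260 to 42870 in the microplastics libraries and 77245 to 102941 in the taurine libraries. Relative to the plain library total these sums were 80284 to 92471, 43829 to 53704 and 73535 to 86570 CPM. BTG4 alone averaged 59410, 19791 and 52885 CPM of the TMM sums in control, microplastics and taurine. By edgeR with TMM, at an adjusted p under 0.05, 6 of the 15 oocyte markers were lower with microplastics and 2 higher. Over all tested genes 14.7% were lower and 9.68% higher. With library size only, 5 markers were lower and 3 higher, against 876 and 4004 of 13206 tested genes. Summed cumulus and granulosa markers were at 511 to 612, 419 to 519 and 517 to 569.5 CPM with TMM. Relative to the plain total they were at 427 to 595, 509 to 645 and 479 to 512 CPM. The sums of control and microplastics overlapped under both scalings. Of the 13 tested cumulus and granulosa markers, 5 were called lower with microplastics and 0 higher under each scaling, beside the shares over all genes given above. The part of these markers in the members' values was not tested. Over all tested genes control 3 correlated more closely with taurine 1 (0.976) than with control 1 (0.962), and taurine 3 more closely with control 2 (0.977) than with taurine 1 (0.951); the labels were kept, and results without both libraries are given below. In these bulk samples a lower value can come from fewer cells of a type or from less RNA per cell. As CPM is relative, it can also come from more RNA of other genes, and the table cannot tell these apart.

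In control oocytes OOEP was by far the most abundant member per transcript length. Levels between genes are compared in TPM, the authors' values, which correct for transcript length, and OOEP, a small KH domain protein required for the complex to assemble in mice, stood at 783, 785 and 813 TPM in control 1, 2 and 3. That mean of 794 ± 17.0 TPM (SD, n = 3) placed it at rank 206 of 17852 genes, in the top 1.15%. NLRP8 (104 ± 30.6 TPM), NLRP9 (92.3 ± 16.8 TPM), KHDC3L (91.2 ± 32.3 TPM) and TLE6 (68.6 ± 34.0 TPM) followed, and these 4 overlapped with each other in their control libraries. PADI6 (23.4 ± 12.4 TPM) and NLRP2 (20.1 ± 8.90 TPM) overlapped too, and the lowest TLE6 library, at 46.6 TPM, lay above the highest PADI6 library, at 36.6 TPM. NLRP5 (7.46 ± 3.51 TPM) and NLRP13 (6.49 ± 1.78 TPM) closed the order of the tested members and were not separated from each other. OOEP mRNA alone made up 66.0% ± 4.07 of the members' summed TPM in control, so the partners of the core differed widely in mRNA level within the same oocytes.

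**Figure D1:**
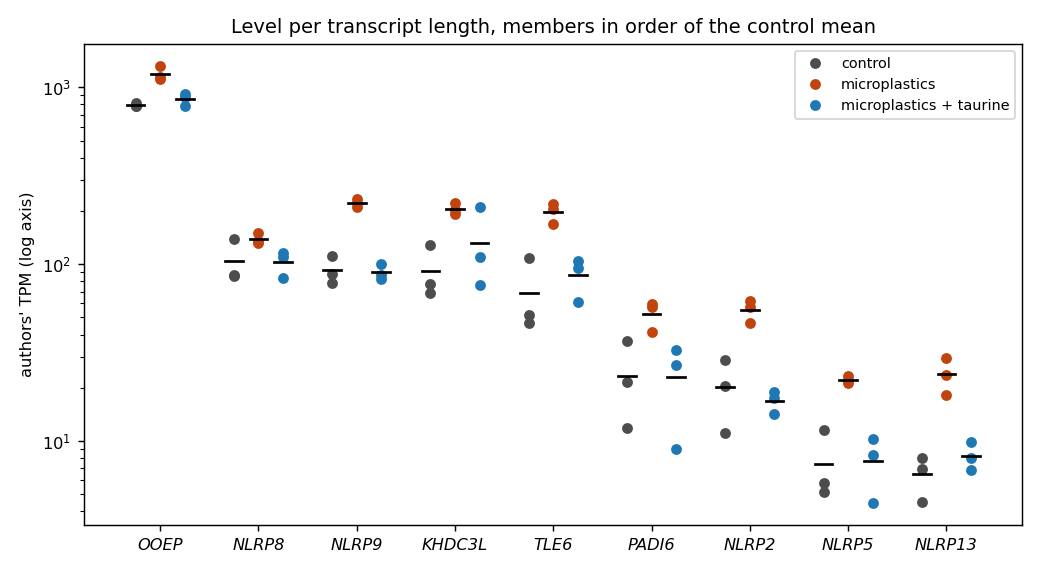
Deposited TPM of the 9 tested members (log axis) in each of the 9 libraries, in control, microplastics, and microplastics with taurine, with points for libraries and bars for the mean of 3. OOEP lies above the other members in every group, near 794 TPM in control, and NLRP5 and NLRP13 lie lowest. ZBED3 is not drawn.

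ZBED3, a zinc finger protein linked to the complex in mouse eggs, was close to the limit of detection. It had 2, 4 and 0 estimated reads in control, 5, 10 and 0 with microplastics and 1, 1 and 2 with taurine. A floor of 3 counts per library corresponds to 0.132 to 0.142 CPM relative to the plain library total, without TMM, and covers counting error only. At 0 to 0.48 TPM in all 9 libraries, no difference between the groups was detectable for ZBED3 at this depth.

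The deposited rows gave TLE6 8 transcripts, NLRP8 5, NLRP13 2, ZBED3 2 and each other member 1. The counts of TLE6 came mostly from XM_015464161, which took 86.4% to 91.9% of them in every library, and those of NLRP13 from XM_010828095, with 90.1% to 98.2%. NLRP8 was more mixed. Its main transcript XM_010828098 took 54.0% to 82.6%, and a second one, XM_010828103, took 27.4% in control 2 and 16.7% in taurine 1 but 1.46% to 6.86% in the other 7 libraries. Such shares are estimates of a program that divides reads among similar transcripts. The gene sum of NLRP2 was not whole in the table although the gene has 1 transcript there, so its reads were partly shared with another feature, and its values are uncertain to that extent, while the other 9 gene sums were whole within 0.05 counts.

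In the RefSeq gene table of the ARS-UCD2.0 assembly, used here for names and neighbours only, KHDC3L and OOEP are adjacent coding genes, and so are NLRP8 and NLRP5. NLRP13 lies beyond LOC107131465 from NLRP8 and overlaps that gene. TLE6 overlaps its neighbours TLE2 and ZNF77, NLRP5 overlaps the non-coding LOC132342887, and PADI6 stands between RCC2 and PADI4. Whether the counting used strand is not given in the sources used here, so reads of such overlapping pairs cannot be told apart with certainty. The adjacent genes KHDC3L and OOEP lay far apart in control level, at 91.2 and 794 TPM.

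The first comparison asked how exposure to microplastics changed the mRNAs of these genes. By edgeR, 5 of the 9 tested members were higher with microplastics (NLRP13, NLRP5, TLE6, NLRP2 and NLRP9), 0 were lower and 4 did not pass (OOEP, KHDC3L, PADI6 and NLRP8). Over all 13206 tested genes 9.68% were called higher and 14.7% lower. The members' median log2 fold change was 0.68, against 0.04 over all tested genes, and 5 members had an unadjusted p under 0.05, as did 38.1% of all tested genes. The same 5 had microplastics libraries that lay entirely above the control libraries, as did 22.4% of all tested genes. Values of a gene across libraries are given in CPM scaled with TMM throughout.

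**Figure D2:**
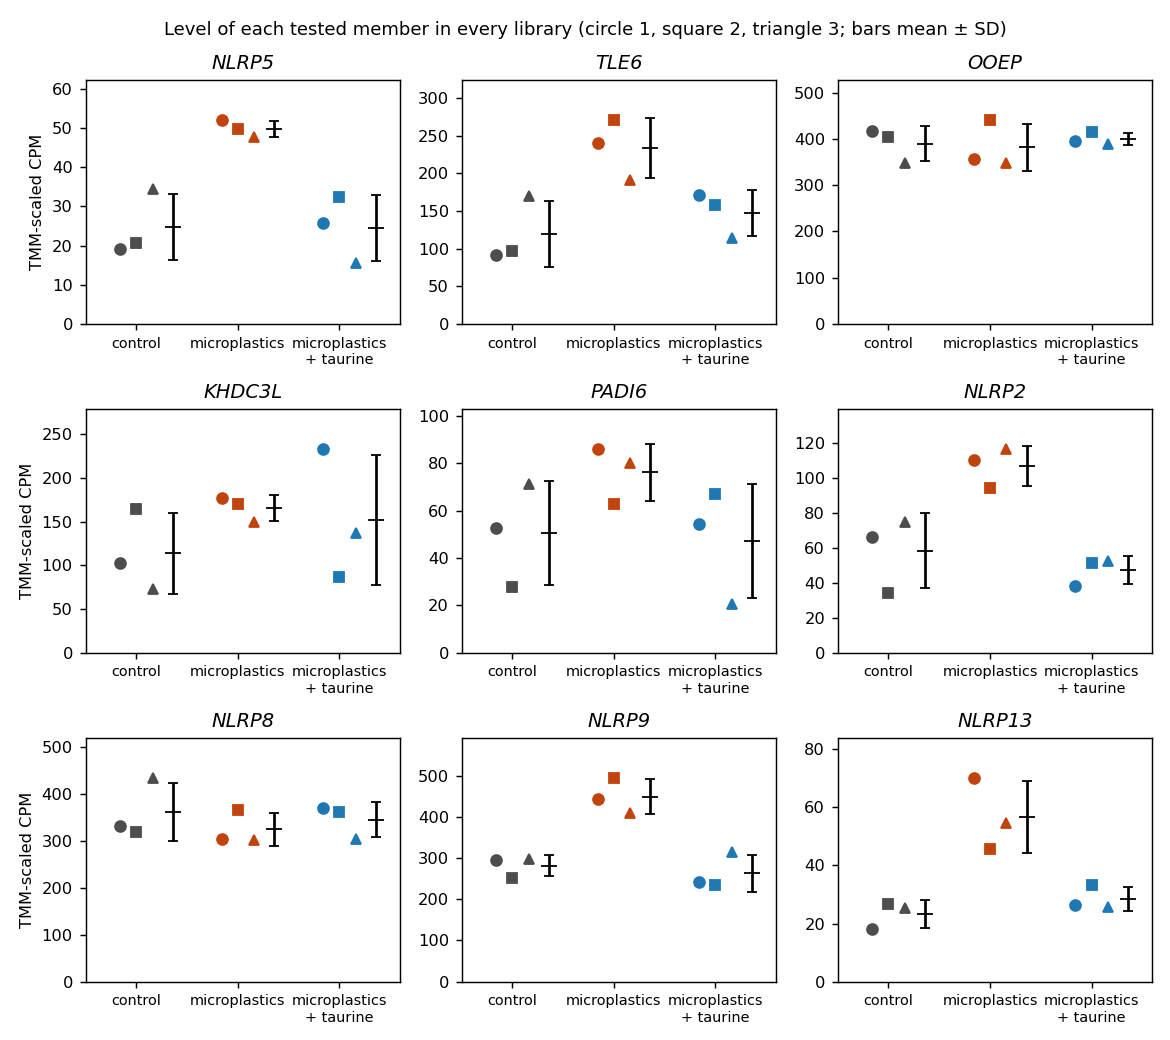
TMM-scaled CPM of each tested member by library, with points for libraries of control, microplastics, and microplastics with taurine and bars for the mean ± SD of 3. The microplastics points of NLRP5, TLE6, NLRP2, NLRP9 and NLRP13 lie above all control points, while those of OOEP, KHDC3L, PADI6 and NLRP8 overlap them.

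Within the core of the complex, NLRP5 and TLE6 rose and their partners OOEP and KHDC3L did not pass. NLRP5, known as MATER, the maternal antigen whose loss stops mouse embryos at early cleavage, was at 19.1, 20.7 and 34.4 CPM in control 1, 2 and 3 and at 51.9, 49.7 and 47.8 CPM with microplastics. The groups did not overlap, and the highest control library was control 3. Its mean went from 24.7 ± 8.40 to 49.8 ± 2.06 CPM (SD, n = 3), a log2 fold change of 1.01 ± 0.28 (SE, adjusted p = 0.0229). Leaving out control 1 (0.85), control 2 (0.89) or any single microplastics library (1.00, 1.02 and 1.05) ended this call, and without control 3 the fold change was 1.34.

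TLE6, a member of the Groucho family of co-repressors that serves the complex in the egg, was at 91.4, 97.2 and 169.7 CPM in control and at 240.2, 270.1 and 192 CPM with microplastics. All 3 microplastics libraries were higher, and control 3 again stood above the other controls. The mean rose from 119 ± 43.6 to 234 ± 39.6 CPM, a log2 fold change of 0.97 ± 0.25 (adjusted p = 0.0171). Its main transcript, tested alone, gave the same value, 0.97 (adjusted p = 0.0341). Without control 1 (0.81), control 2 (0.84), microplastics 1 (0.97) or microplastics 2 (0.87) the call of the gene was lost.

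OOEP was at 418, 404 and 347 CPM in control and at 356, 439.9 and 349 CPM with microplastics, so that the groups overlapped. The log2 fold change was -0.03 ± 0.15 (adjusted p = 0.906), and it was 0.46 with scaling by library size only and 0.42 with the trend of fold change on transcript length removed. In TPM, which is not TMM-scaled, OOEP went from 783 to 813 in control to 1118 to 1322 with microplastics. OOEP has the shortest transcript of the members, with an effective length of 472 nt against 1069 to 3537 nt for the others, as implied by the deposited counts and FPKM.

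KHDC3L, the KH domain protein known as FILIA that joins the complex through NLRP5 in mice, was at 103, 165 and 73.5 CPM in control and at 177, 170.3 and 149 CPM with microplastics. Control 2 reached into the microplastics range. The log2 fold change of 0.54 ± 0.34 did not pass (adjusted p = 0.264).

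Among the members outside the core, NLRP2 rose and PADI6 did not pass. NLRP2, which is linked to imprinting disorders through the maternal genotype, was at 66.2, 34.4 and 74.8 CPM in control and at 110.2, 94.2 and 116 CPM with microplastics. The lowest microplastics library lay above the highest control. Its log2 fold change was 0.87 ± 0.26 (adjusted p = 0.0301), a call that was lost without control 1 (0.97), control 2 (0.60), microplastics 1 (0.86) or microplastics 3 (0.82). PADI6, a peptidylarginine deiminase of the egg's cytoplasmic lattices, was at 52.6, 27.9 and 71.3 CPM in control and at 85.9, 62.7 and 80.1 CPM with microplastics. Control 3 lay inside the microplastics range, and the log2 fold change of 0.59 ± 0.40 did not pass (adjusted p = 0.297).

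Of the further oocyte NLRP genes, NLRP13 and NLRP9 rose and NLRP8 did not pass. NLRP13 was at 18.0, 26.7 and 25.3 CPM in control and at 70.0, 45.5 and 54.6 CPM with microplastics, with no overlap. The mean rose from 23.3 ± 4.68 to 56.7 ± 12.4 CPM, a log2 fold change of 1.28 ± 0.22 (adjusted p = 0.00199). It was called with any 1 of the 9 libraries left out, at 1.12 to 1.43, and had the largest fold change of the members, with 4.34% of tested genes above it. Its main transcript alone gave 1.30 (adjusted p = 0.00679).

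NLRP9 was at 294, 251 and 297 CPM in control and at 444, 493 and 409 CPM with microplastics. The lowest microplastics library lay well above the highest control, and the means were 281 ± 25.7 and 449 ± 42.3 CPM (SD, n = 3). The log2 fold change was 0.68 ± 0.17 (adjusted p = 0.0132), lost without control 2 (0.60) or microplastics 2 (0.62). NLRP8, a further member of the oocyte branch, was at 331, 318 and 433 CPM in control and at 304, 365 and 303 CPM with microplastics. The groups overlapped, and the log2 fold change was -0.16 ± 0.17 (adjusted p = 0.535), or 0.31 with scaling by library size only. NLRP5, adjacent to NLRP8 in the RefSeq table, was called higher, while the value of NLRP8 lay within its SE of 0, so its sign was not settled.

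**Figure D3:**
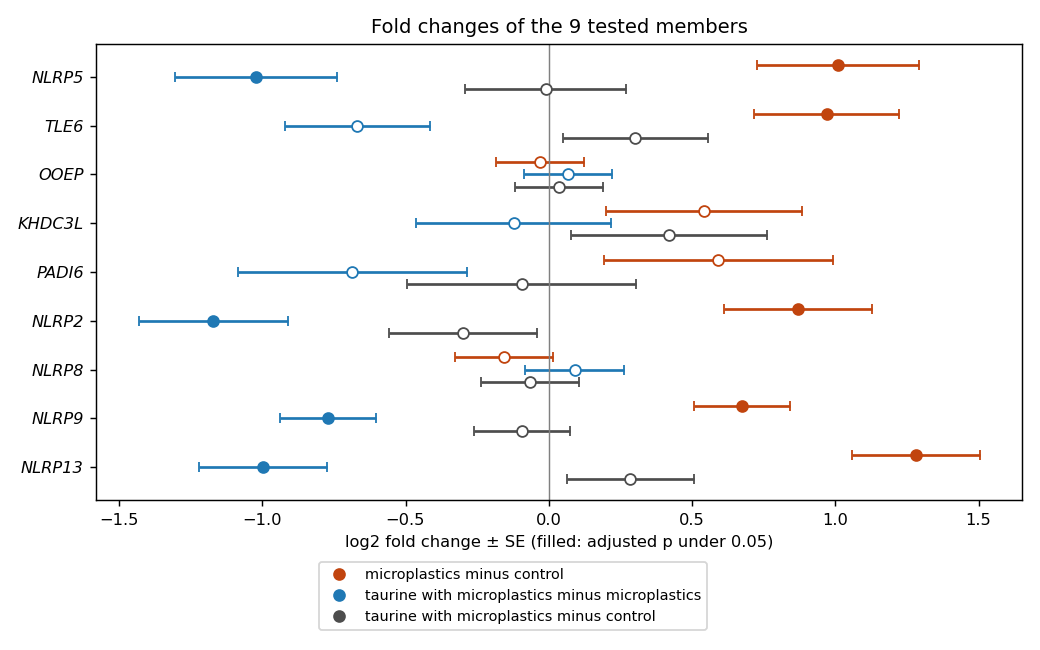
Fitted log2 fold changes of the 9 tested members with their SE in the 3 comparisons, with filled points for calls at an adjusted p under 0.05. NLRP13, NLRP5, TLE6, NLRP2 and NLRP9 are called above 0 in microplastics minus control, and NLRP5, NLRP2, NLRP9 and NLRP13 below 0 in taurine with microplastics minus microplastics.

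Scaling and transcript length moved these values. With scaling by library size only the median of all genes went from 0.04 to 0.52, 82.0% of calls were higher against 39.8%, and 7 members were called (those 5 with KHDC3L at 1.05 and OOEP at 0.46), against 30.3% of all genes called higher. With the trend on length removed in each library, NLRP13 (1.06), TLE6 (0.95) and NLRP5 (0.81) stayed called, against 8.1% of all genes called higher, while NLRP2 (0.71) and NLRP9 (0.49) were no longer called. The 5 called members have effective lengths of 1750 to 3537 nt. NLRP8, of 3444 nt, lies within that range and was at -0.37 with that trend removed. When transcripts were tested one by one, NLRP5 (1.01, adjusted p = 0.0506) and NLRP2 (0.87, adjusted p = 0.0613), each with a single transcript, were no longer called.

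**Figure D4:**
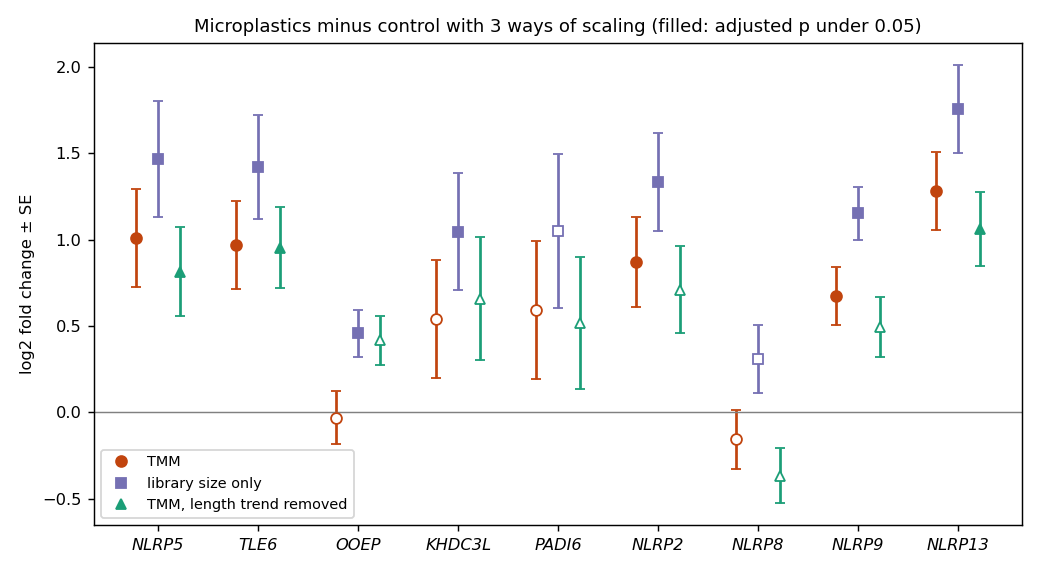
Log2 fold changes of the 9 tested members in microplastics minus control under TMM, library size only, and TMM with the length trend removed, with bars for the SE and filled points for calls. Library size only moves every member up, OOEP from -0.03 to 0.46, and NLRP13 has the highest value under each of the 3.

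Ratios within a library do not depend on scaling between libraries, and here they compare partners of the core with each other. Per 100 TPM of OOEP, NLRP5 stood at 0.654, 0.733 and 1.41 TPM in control, at 2.09, 1.61 and 1.95 TPM with microplastics and at 0.941, 1.12 and 0.573 TPM with taurine. Microplastics libraries lay above all 6 others. The mean log2 ratio was -6.83 ± 0.60 in control and -5.74 ± 0.20 with microplastics, a difference of 1.09. For TLE6 per 100 TPM of OOEP the values were 5.96, 6.53 and 13.2 TPM in control, 18.3, 16.6 and 14.8 TPM with microplastics and 11.8, 10.4 and 7.89 TPM with taurine, again without overlap of microplastics with either group. With 3 libraries against 3, an exact two-sided permutation test of a single ratio cannot give a p below 0.1. PADI6 and KHDC3L relative to OOEP overlapped between control and microplastics, with differences of 0.71 and 0.65 on the log2 scale. NLRP5 relative to KHDC3L overlapped too, with differences of 0.44 for microplastics minus control and -0.84 for taurine with microplastics minus microplastics. These ratios carry the trend on length: with it removed NLRP5 was at 0.81 and OOEP at 0.42 in the first comparison, against 1.01 and -0.03. A sum of TPM, unlike these ratios, is not free of the scaling between libraries. The 5 NLRP members together made 230 ± 59.5 TPM in control, 463 ± 8.88 TPM with microplastics and 226 ± 11.4 TPM with taurine. Within that sum the mean of NLRP8 went from 104 TPM in control to 139 TPM with microplastics, though its TMM log2 fold change was -0.16. The share of OOEP in the members' TPM was 66.0% ± 4.07 in control, 56.4% ± 2.25 with microplastics and 64.9% ± 3.77 with taurine.

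**Figure D5:**
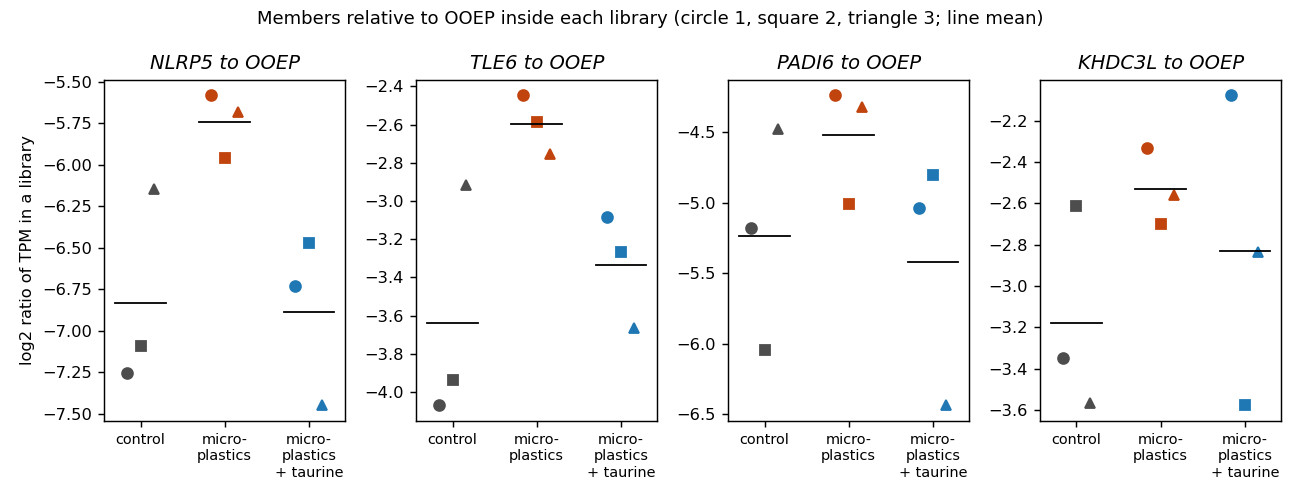
Within-library log2 ratios of TPM between members, by library and group, with lines for the mean of 3. The ratio of NLRP5 to OOEP lies between -5.96 and -5.58 with microplastics, above all control and taurine libraries.

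The second comparison asked how taurine changed these mRNAs in oocytes that also had microplastics. It shares the microplastics libraries with the first, so the signs of the 2 are not independent. Of the 9 tested members, NLRP2, NLRP9, NLRP13 and NLRP5 were lower with taurine by edgeR, 0 were higher and 5 did not pass, against 4.13% of all tested genes called lower and 10.1% called higher. The members' median was -0.69, against -0.02 over all tested genes. In 5 members, the called ones and TLE6, every taurine library lay below every microplastics library, as it did in 17.4% of all tested genes.

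NLRP2 was at 38.2, 51.6 and 52.7 CPM with taurine, all below the lowest microplastics library of 94.2 CPM. Its mean of 47.5 ± 8.06 CPM gave a log2 fold change of -1.17 ± 0.26 (adjusted p = 0.0113). NLRP9 was at 241, 234 and 315 CPM with taurine, and its log2 fold change of -0.77 ± 0.17 was also called (adjusted p = 0.0102). Both calls held with any 1 of the 9 libraries left out, at -1.27 to -1.04 for NLRP2 and -0.92 to -0.69 for NLRP9. NLRP13, at 26.4, 33.2 and 25.6 CPM, fell by 1.00 ± 0.22 on the log2 scale (adjusted p = 0.0114), a call lost without microplastics 1 (-0.84).

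In the core, NLRP5 was at 25.7, 32.3 and 15.6 CPM with taurine. Taurine 3 was the lowest, and all 3 lay below the microplastics libraries. The log2 fold change was -1.02 ± 0.28 (adjusted p = 0.0316), lost without microplastics 1 (-1.01), microplastics 2 (-1.04), microplastics 3 (-1.07) or taurine 3 (-0.78), with the length trend removed (-0.84), and when transcripts were tested one by one (-1.02, adjusted p = 0.0682). TLE6 was at 171, 158 and 114 CPM with taurine, below its lowest microplastics library of 192 CPM, but its log2 fold change of -0.67 ± 0.25 did not pass (adjusted p = 0.101). It passed without control 3 (-0.68) and when scaled by library size only (-1.08), where 5 members were called against 18.8% of all genes called lower.

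The other members overlapped between microplastics and taurine. OOEP was at 395, 415 and 389 CPM with taurine (0.07 ± 0.15, adjusted p = 0.811), or -0.36 with scaling by library size only. KHDC3L was at 233, 86.4 and 137 CPM (-0.12 ± 0.34, adjusted p = 0.843), with a coefficient of variation of 48.9% in this group. PADI6 was at 54.4, 67.1 and 20.5 CPM (-0.69 ± 0.40, adjusted p = 0.280), with taurine 3 far below the others and a coefficient of variation of 50.9%. NLRP8 was at 370.4, 361 and 303 CPM (0.09 ± 0.17, adjusted p = 0.766).

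The third comparison set taurine with microplastics against control and shares libraries with both others. By edgeR 0 of 9 members were called, 0 had an unadjusted p under 0.05, and DESeq2 called 0 as well. Over all tested genes 0.00757% were called, and 9.15% did not overlap between the groups, a share in which no member fell. Fitted values were -0.01 ± 0.28 for NLRP5, 0.30 ± 0.25 for TLE6, 0.04 ± 0.15 for OOEP, 0.42 ± 0.34 for KHDC3L, -0.09 ± 0.40 for PADI6, -0.30 ± 0.26 for NLRP2, -0.07 ± 0.17 for NLRP8, -0.09 ± 0.17 for NLRP9 and 0.28 ± 0.22 for NLRP13 (adjusted p from 0.860 to 0.997). A missing call does not show that the groups were alike, and for KHDC3L and PADI6 the SE alone was 0.34 and 0.40.

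Control 3 and taurine 3 were the highest or lowest library of their group in most members. Of the 9 members 6 were higher in control 3 than in both other controls, by 0.90 for PADI6, 0.85 for TLE6, 0.79 for NLRP5, 0.65 for NLRP2, 0.41 for NLRP8 and 0.13 for NLRP9 on the log2 scale against their mean, and OOEP and KHDC3L were lower. Taurine 3 was below both other taurine libraries in 6 members, by 1.56 for PADI6 and 0.89 for NLRP5, and above both in NLRP2 and NLRP9. Other libraries lay farthest out in some members: control 2 in NLRP2 (34.4 CPM) and KHDC3L (165 CPM), and control 1 in NLRP13 (18.0 CPM). Among taurine libraries, taurine 1 did so in NLRP2 (38.2 CPM). How often control 3 or taurine 3 was the highest or lowest over all tested genes was not computed. With control 3 and taurine 3 left out together, PADI6 was also called in microplastics minus control (0.94), where NLRP13 was at 1.36, NLRP5 at 1.34, TLE6 at 1.33, NLRP2 at 1.11 and NLRP9 at 0.74, and 19.5% of all genes were called higher. In taurine with microplastics minus control, TLE6 was then called higher at 0.80 while 4.64% of all genes were, and NLRP5 stood at 0.55 and PADI6 at 0.60. Why these libraries stand apart was not tested.

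The genes whose pattern over the 9 libraries was most like that of a core member were taken by Pearson correlation of log2 CPM among 8278 genes with a symbol and a mean of at least 5 CPM. These are descriptions with no test, since the libraries share 3 groups and their composition. For NLRP5 they were ARHGEF7 (0.987), BSPRY (0.980) and RPRD2 (0.979), and for TLE6 CIC (0.983), MAP1S (0.982) and CHP1 (0.979). OOEP had lower best values, with LOC100337244 (0.882), LRRC78 (0.877) and TSACC (0.845), and KHDC3L had MYOZ1 (0.918), SMIM13 (0.896) and CILK1 (0.872). Among the members themselves NLRP5 correlated at 0.91 with TLE6, 0.85 with NLRP13 and 0.84 with PADI6, but at 0.12 with KHDC3L and -0.31 with OOEP, and NLRP2 at 0.87 with NLRP9.

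Relatives and partners of the members were followed through gene lists. NLRP14, the 1 further NLRP gene of the reproductive branch in the table, a partner of UHRF1 in mouse oocytes, was at 294, 326 and 357 CPM in control, 340, 311 and 369 CPM with microplastics and 301, 306 and 291 CPM with taurine, and did not pass (0.06, adjusted p = 0.785). Of the relatives by protein family, 0 of 5 tested KH genes, 0 of 2 other PADI genes, 0 of 5 TLE genes and 0 of 2 ZBED genes were called by edgeR in microplastics minus control. Among all tested genes 9.68% were called higher and 14.7% lower there. When scaled by library size only, NLRP14 (0.54), KHDRBS1, KHSRP and TLE2 were called higher, while 30.3% of all genes were. PADI4, the neighbour of PADI6, had at most 1 read in any library.

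Genes of 14-3-3 proteins, which bind many phosphoproteins of the egg, counted 0 rises and 1 fall of 7, or 3 rises (YWHAB, YWHAG and YWHAH) and 1 fall when scaled by library size only. For this list and the next, the shares over all 13206 tested genes were 9.68% higher and 14.7% lower with TMM. With library size only they were 30.3% higher and 876 genes lower. YWHAQ fell from 184 ± 21.4 to 55.7 ± 1.95 CPM with microplastics (log2 -1.73, adjusted p = 5.34e-05) and was at 177 ± 25.9 CPM with taurine (log2 1.67, adjusted p = 0.000118). Actin and cofilin genes, which the complex is held to regulate in mice, counted 0 rises and 3 falls of 9, or 3 rises (SSH2, SSH3 and PDXP) and 1 fall (SSH1) when scaled by library size only. SSH1, the slingshot phosphatase that activates cofilin, went down from 389 ± 69.4 to 199.6 ± 21.6 CPM (log2 -0.96, adjusted p = 0.00518). For ACTB, beta-actin, the fall was from 478 ± 111 to 311 ± 23.2 CPM (log2 -0.62, adjusted p = 0.0315). The ACTB call was lost when scaled by library size only (-0.16) and without control 2 (-0.60), control 3 (-0.44) or any 1 microplastics library (-0.66 to -0.56). It was also lost with the replicate number added as a block (-0.61) and with control 3 and taurine 3 left out together (-0.44). CFL1, the cofilin gene, was called at -0.46 (adjusted p = 0.0426), a call that was lost without any 1 control or microplastics library or taurine 2 (-0.51 to -0.35) and that stood at 0.02 with scaling by library size only. The CFL1 call was lost as well with the length trend removed (-0.22), no filter (-0.45) and the replicate block (-0.46). Leaving out control 3 and taurine 3 together (-0.41) also ended it.

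Genes of imprint maintenance counted 1 rise and 2 falls of 7 tested, or 4 rises (DNMT1, DNMT3A, DNMT3B and NLRP14) and 1 fall (UHRF1) when scaled by library size only. Of all 13206 tested genes, 9.68% were called higher and 14.7% lower, or 30.3% higher and 876 genes lower with library size only. DNMT3A, a de novo DNA methyltransferase, rose from 5.12 ± 2.11 to 12.2 ± 2.23 CPM (log2 1.25, adjusted p = 0.0181), a call lost without control 1 (1.01), control 2 (1.17), microplastics 1 (1.21) or microplastics 3 (1.16). UHRF1, which recruits the maintenance methyltransferase, fell by 1.06 on the log2 scale (adjusted p = 0.00292), and DPPA3, which protects maternal methylation, by 0.82 (adjusted p = 0.00229), though DPPA3 was not called with scaling by library size only (-0.33). Of 32 tested further maternal-effect and oocyte genes 3 rose and 8 fell, or 9 rose and 6 fell when scaled by library size only. With TMM the falls included BTG4 (-1.59, adjusted p = 0.000203) and the rises PABPC1L (1.36, adjusted p = 0.0101) and ZAR1 (1.00, adjusted p = 0.00276).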

How the data were processed

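The deposited table has 22590 transcript rows. It holds the authors' estimated counts per transcript, not normalized per the file headers, with FPKM and TPM values beside them, and a further set of scaled values, treated here as a signal, with group means. The deposited FPKM served only to derive effective lengths from counts, the deposited TPM served for levels between genes, and the authors' scaled signal and means were not used. The aligner, counter, strand setting, genome build and annotation were not given in the sources used here.

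Estimated counts and TPM were summed per gene ID, giving 17852 genes, and counts were rounded to whole numbers. Symbols came from the RefSeq gene table of ARS-UCD2.0, which named 16995 genes (95.2%). Tests were made with edgeR 4.0.16 (quasi-likelihood, R 4.3.3) after filterByExpr (count 10, total 15) and TMM scaling, robustly over all 9 libraries, with Benjamini-Hochberg adjustment over 13206 genes. Calls needed an adjusted p under 0.05. The SE is the absolute log2 fold change divided by the square root of F. Depth was 21.17 to 22.74 M estimated reads per library.

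All 10 members are named, with up to 2 rising and 2 falling called genes of each list by fold change, and the 3 genes most like each of 4 core members, from log2 CPM with a prior count of 2; CFL1, NLRP14, PADI4, NLRP3 and the genes called only when scaled by library size were added after their values were seen. The members and lists were chosen with earlier results of these data known. Alternatives were DESeq2 size factors, library size only, no filter, 5 CPM in 3 libraries, DESeq2 1.42.0, limma-voom (limma 3.58.1), the 2 groups compared only, a replicate block, each library left out, control 3 and taurine 3 left out, a loess trend on length (span 0.3) removed, and transcripts tested one by one. The tests were checked on simulated counts with as many rises as falls, a setting that does not test the scaling between libraries.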

Additional observations from a re-analysis of the deposited data

How the results depend on the processing

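In microplastics minus control the 3213 genes called became 4880 with scaling by library size only and 5110 with control 3 and taurine 3 left out together, and 1715 (without control 1) to 4151 (without control 3) with each library left out; members called, 5, became 3 with the length trend removed and 1 to 5 with each library left out. In taurine with microplastics minus microplastics the 1878 genes became 3089 with library size only and 888 to 2146 with each library left out, and the 4 members 2 to 5. In taurine with microplastics minus control the 1 gene called (753 at an unadjusted p under 0.05) became 5 with DESeq2, 783 with control 3 and taurine 3 left out together, 0 with 5 CPM in 3 libraries, limma-voom, the 2 groups compared only or the replicate block, and 0 to 2 with each library left out, while 0 members became 1 with control 3 and taurine 3 left out together.

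Members whose sign turned were called neither before nor after, except OOEP with library size only in the first comparison. There OOEP (-0.03) was at 0.46 with library size only, 0.021 with 5 CPM in 3 libraries, 0.42 with the length trend removed and -0.13 to 0.047 with each library left out, and NLRP8 (-0.16) at 0.31 with library size only, 0.012 with control 3 and taurine 3 left out and -0.24 to 0.012 with each left out. In the second comparison OOEP (0.07) was at -0.36 with library size only, -0.26 with the length trend removed and -0.012 to 0.17 with each left out, KHDC3L (-0.12) at -0.57 to 0.16 with each left out, and NLRP8 (0.09) at -0.33 with library size only. CFL1 in the first comparison was at 0.018 with library size only. In the third comparison NLRP5 was at 0.031 with library size only; with control 3 and taurine 3 left out NLRP5, OOEP, PADI6 and NLRP8 were at 0.55, -0.016, 0.60 and 0.18; with each library left out NLRP5 ranged from -0.26 to 0.30, OOEP from -0.039 to 0.090, KHDC3L from -0.028 to 0.79, PADI6 from -0.43 to 0.26 and NLRP8 from -0.15 to 0.087. The log2 ratio of KHDC3L to OOEP, -0.30 for taurine with microplastics minus microplastics, ranged from -0.68 to 0.074. The cause was not tested.

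Deviations of same-numbered libraries of different groups correlated at -0.44 to 0.26 over 9 pairs. Between control and microplastics they correlated at 0.05, 0.18 and 0.26, against -0.22 to 0.09 for libraries of different number. Pairs that included a taurine library correlated at -0.44 to 0.02. The numbers were not taken to pair libraries in the main fit. With the replicate block 2417 and 1293 genes were called in the first and second comparison, and NLRP5 lost its call in both (1.01 and -1.03). ZBED3 gave too few reads for any comparison.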

Other observations

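Genes of the inflammasome and other NLR genes, the innate immune relatives of the oocyte NLRP genes, were mostly near the detection limit. Of 20 listed genes 17 were in the table, 4 of these had at most 3 reads in any library, and 8 were tested. In microplastics minus control 1 rose and 1 fell by edgeR, or 3 rose (NLRP1, NLRC5 and NOD1) and 0 fell when scaled by library size only. Of all 13206 tested genes, 9.68% were called higher and 14.7% lower, or 30.3% higher and 876 genes lower with library size only. NOD1, a cytosolic sensor of bacterial peptidoglycan, had means of 29.0 ± 12.0 CPM (control), 60.1 ± 7.67 CPM (microplastics) and 35.9 ± 10.7 CPM (taurine; SD, n = 3), a log2 fold change of 1.05 with microplastics (adjusted p = 0.0221) that was lost without control 1 (0.88), control 2 (0.89), microplastics 2 (1.06) or microplastics 3 (0.97). In taurine with microplastics minus microplastics NOD1 did not pass by edgeR (-0.74, adjusted p = 0.108). It passed there without control 3 and when scaled by library size only (-1.16). CASP1, the inflammasome's caspase, was at 156 ± 42.2, 75.9 ± 10.2 and 153 ± 38.0 CPM in the same order, a fall of -1.04 (adjusted p = 0.00881) that was not called without microplastics 3 (-0.93) or with scaling by library size only (-0.54). With taurine CASP1 rose by 1.01 (adjusted p = 0.0145), which no longer passed without microplastics 2 (1.00), microplastics 3 (0.90), taurine 2 (0.80) and with scaling by library size only (0.58). NLRP3, the best-studied inflammasome sensor, had at most 8 reads in any library.

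GDF9, a growth factor of the oocyte and the other falling gene taken by the naming rule, was at -1.32 in microplastics minus control (adjusted p = 0.0277), lost without control 1 (-0.51) or any 1 microplastics library, when scaled by library size only (-0.81), with the replicate block (-1.16) and with no filter (-1.32, adjusted p = 0.0597).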
